A study of Rattus norvegicus with 8 samples.

Results

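The cytochrome P450 2C (CYP2C) genes of the rat were described in liver, small intestine and spleen after oral lavender oil (LO). The members were 6 genes, taken as every non-control array feature annotated to 1 of 6 transcript accessions: *Cyp2c7* (NM_017158), *Cyp2c11* (NM_019184), *Cyp2c12* (NM_031572), *Cyp2c13* (NM_138514), *Cyp2c22* (NM_138512) and *Cyp2c23* (NM_031839). They were covered by 9 of the 43345 features used, 4 of them for *Cyp2c7* and 1 for each of the other 5 genes, and all 9 passed the filter on dim probes. The accessions were chosen with the LO/control ratios of the liver arrays already known, and the study itself had picked *Cyp2c12* from them. The liver LO/control values below are therefore a description without a test. The study also reported up-regulation of *Cyp2c12* in liver by semi-quantitative RT-PCR, which was not re-examined here.

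CYP2C enzymes are haem monooxygenases of the endoplasmic reticulum that receive electrons from NADPH-cytochrome P450 reductase and oxidise drugs, steroids, fatty acids and plant terpenes, mainly in hepatocytes. In rat liver several of them differ by sex: *Cyp2c11* and *Cyp2c13* are known as male-specific forms, *Cyp2c12* as the female-specific form and *Cyp2c7* as a female-predominant form. The pulsatile or continuous release of growth hormone sets these patterns through STAT5 and liver-enriched factors such as HNF4, HNF6 and HNF3.

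Male rats of 7 weeks received LO of *Lavandula angustifolia* into the stomach at 5 mg/kg in 10% ethanol, or 10% ethanol alone as the control, once a day for 13 days, and tissues were taken on day 14 from 6 rats per group. The strain was given as Wistar in the sample characteristics and as Fischer in the protocol text. RNA was pooled within each group, and control and LO RNA were hybridised together on 2-colour 4×44K whole-genome chips, with the dyes exchanged on a second array. There were 2 arrays for spleen, 2 for small intestine and 4 for liver, the latter from pairs of pools called here pool 1 and pool 2, and whether these pools held different rats was not stated. A dye-swapped pair held the same 2 extracts and was counted as 1 replicate, so that liver had n = 2 pools and the other tissues n = 1 without replication.

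On each array 44.3% to 64.7% of the features were clearly brighter than background in the red as well as the green channel. Of the hepatocyte markers, all 15 probes were higher in liver than in spleen at an adjusted p under 0.05 (limma), beside 31.9% of all probes tested. Against small intestine 11 of the 15 were higher in liver, beside 31%, and 1 probe, that of *Apoa1*, was lower. By the slide identifiers in the file headers each tissue lay on a slide of its own, so slide and tissue cannot be told apart. In whole-tissue RNA, fewer cells of a type and less RNA per cell cannot be told apart either.

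The sequences just upstream of *Cyp2c12* and *Cyp2c13* are shown because these neighbours on chromosome 1 had the most similar pair of promoters among the 6 genes. Both are 150 bases ending at the base before the RefSeq start (GRCr8, minus strand), with matches to 4 searched motifs in capitals. *Cyp2c12* lies at chr1:248677035-248677184 and *Cyp2c13* at chr1:248787189-248787338.
Cyp2c12: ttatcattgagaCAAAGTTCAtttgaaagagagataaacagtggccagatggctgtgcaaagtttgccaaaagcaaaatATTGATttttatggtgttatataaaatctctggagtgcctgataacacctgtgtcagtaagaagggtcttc
Cyp2c13: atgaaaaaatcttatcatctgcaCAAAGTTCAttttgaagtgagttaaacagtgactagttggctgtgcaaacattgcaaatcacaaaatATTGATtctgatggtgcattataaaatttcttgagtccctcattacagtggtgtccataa

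Over their 300-base promoter windows the pair was 66.3% identical, against a range of 44.4% to 66.3% over all pairs of the 6 genes. In both genes the first capitals are CAAAGTTCA, a match to the HNF4-type element CAAAGNNCA, and the second are ATTGAT, the core of an HNF6 site. *Cyp2c12* held a second HNF6 core on the opposite strand (ATCAAT), 243 bases before the start and outside the printed stretch. Both strands were searched, and no matches overlapped.

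*Cyp2c7* was the third gene with both motifs, and the windows of 30 bases around its matches are shown for comparison, with its HNF6 core on the opposite strand (ATCAAT). They lie at chr1:247966261-247966290 and chr1:247966311-247966340 on the plus strand.
Cyp2c7, HNF4-type element: atcaaagggaCAAAGATCActtgatagaga
Cyp2c7, HNF6 core: cctaatggactaATCAATgatgctcaaaga

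CAAAGNNCA was present in 3 of the 6 promoters and in 6.08% of all 33469 RefSeq promoters of the same length, and ATTGAT in 3 of 6 and 8.06%. The forkhead core TGTTTAC was found in *Cyp2c7*, *Cyp2c22* and *Cyp2c23*, and in 3.78% of all promoters. The STAT core TTCNNNGAA was in none of the 6 windows and in 8.87% of all. *Cyp2c11* held none of these letters in its window. These matches are a description of letters and not of bound sites.

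*Cyp2c12*, the female-specific steroid hydroxylase, had the largest LO/control ratio of the family. The rats were male, yet its probe was well above background in every liver channel. Whether related Cyp2c transcripts contributed to this signal was not tested. In liver pool 1 its processed signal was 803 in control and 1447 in LO RNA with LO in Cy5, and 840 and 1669 with the dyes exchanged. In pool 2 the signals were 489 in control and 873 in LO, and 478 and 905 with the dyes exchanged. LO was the brighter channel on all 4 arrays, and the lowest LO signal exceeded the highest control signal although the pools differed in level.

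The LO/control ratios of *Cyp2c12* were 1.80 and 1.99 on the arrays of pool 1 and 1.79 and 1.89 on those of pool 2. Its mean log2 LO/control was 0.92 in pool 1 and 0.88 in pool 2, which averages to 0.90 ± 0.03 (SD over 2 pools), a 1.86-fold ratio. This value ranked 1st from the top among 16317 bright probes (those well above background in every channel of the 4 liver arrays), which had a median of -0.0016 and an SD of 0.09. The choice of *Cyp2c12* rested on this contrast, so its rank is no independent evidence.

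**Figure D1:**
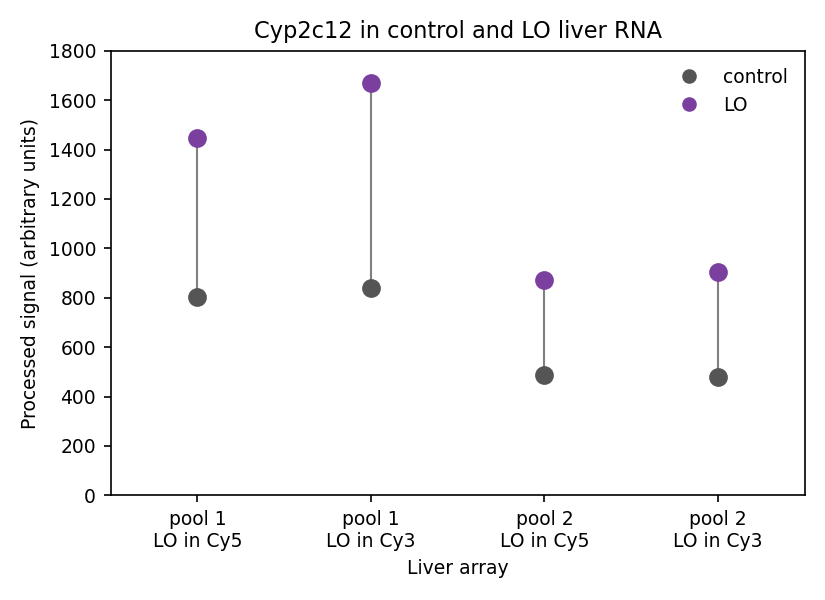
Processed signal of the *Cyp2c12* probe (y axis, arbitrary units, from 0) in control and LO RNA on each of the 4 liver arrays (x axis), with a grey line joining the 2 channels of an array. The LO points lie between 873 and 1669 and the control points between 478 and 840, with pool 1 above pool 2 in both.

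By the cut-offs of the study's methods, a feature was up-regulated at Cy5/Cy3 of at least 1.5 with LO in Cy5 and at most 0.75 with LO in Cy3, and down-regulated in the reverse case. They were passed on all 4 liver arrays by 1 of the 9 Cyp2c features, that of *Cyp2c12*, in the up direction, where the share of all features was 0.0208%. No Cyp2c feature passed in the down direction, where the share was 0.0254%. *Cyp2c12* also passed with the scanner software's p under 0.01 on each array, as did 0.00461% of all features. Among the 17568 features that were bright by the same criterion, only *Cyp2c12* and *Ccnb1*, a mitotic cyclin, passed upwards (0.0114%). Since the members were chosen on this contrast, nothing is read from these shares.

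*Cyp2c12* also differed between the pools. After scaling between arrays its control level was 950 in pool 1 and 645 in pool 2, a 1.47-fold difference, and 81.8% of the 16317 bright probes differed less. Its LO level was 1798 in pool 1 and 1186 in pool 2, or 1.52-fold. LO RNA of pool 2 was 1.25-fold above control RNA of pool 1, so the LO/control ratio within a pool was larger than the difference between pools, and the extracts did not overlap.

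By the same scaled levels, the 2 LO extracts lay wholly above the 2 control extracts for 1 of the 9 Cyp2c probes (*Cyp2c12*), beside 4.87% of the bright probes. They lay wholly below for 1 of 9 (*Cyp2c22*), beside 4.54% of the bright probes. For the other probes the levels of control and LO liver overlapped.

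*Cyp2c7*, the female-predominant form, was the only member measured by several probes, which share 1 transcript and are not replicates. Probe A_43_P13939 gave LO/control ratios of 1.38 and 0.907 in pool 1 and 1.48 and 1.04 in pool 2, with the higher ratio on the array with LO in Cy5 each time. Probe A_44_P651091 gave 1.22 and 0.988 in pool 1 and 1.39 and 1.08 in pool 2, with the same order by dye. Red over green differed on average by 0.28 and 0.17 on the log2 scale in these probes, close to their mean LO/control values.

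Probe A_44_P484669 of *Cyp2c7* gave ratios of 0.961 and 1.14 in pool 1 and 1.03 and 1.16 in pool 2. Probe A_44_P698234 gave 1.004 and 1.19 in pool 1 and 1.11 and 1.23 in pool 2. Here the higher ratio came from the array with LO in Cy3, opposite to the other pair of probes, and only A_44_P698234 was above 1 on all 4 arrays.

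Averaged over the dyes, all 4 *Cyp2c7* probes were above 0 in both pools, with mean log2 LO/control of 0.24 ± 0.11, 0.21 ± 0.11, 0.18 ± 0.07 and 0.10 ± 0.04 (SD, n = 2 pools) for A_43_P13939, A_44_P651091, A_44_P698234 and A_44_P484669. These are 1.07-fold to 1.18-fold ratios. The share of bright probes with a smaller absolute mean ranged from 78.3% to 97.7%. Control levels of *Cyp2c7* were 1.28-fold to 1.34-fold higher in pool 1 than in pool 2. Of the bright probes, 62.1% to 69.3% differed less between the control pools. The pool difference of *Cyp2c7* exceeded its LO/control ratio in either pool (at most 1.24-fold). Its scaled control and LO levels overlapped in every probe.

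*Cyp2c11*, the male-specific testosterone hydroxylase, showed no LO/control difference beyond the spread of the pools. Its LO/control ratios were 1.29 and 0.663 in pool 1 and 1.36 and 0.789 in pool 2. The red channel was brighter on all 4 arrays whichever RNA it held, by 0.43 on the log2 scale on average, and LO/control averaged -0.03 ± 0.12 (log2, SD over 2 pools). Scaled levels were 104681 in control and 96610 in LO of pool 1, and 95845 and 99087 in pool 2.

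*Cyp2c13*, the other male-specific form, gave ratios of 1.097 and 0.818 in pool 1 and 1.04 and 0.907 in pool 2, again higher with LO in Cy5. Its mean log2 LO/control was -0.06 ± 0.03, and 58.1% of the bright probes had a smaller absolute mean. The mean log2 LO/control of its neighbour *Cyp2c12* was 0.90.

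*Cyp2c22*, which encodes a retinoic acid hydroxylase, gave ratios of 0.815 and 1.04 in pool 1 and 0.806 and 0.973 in pool 2. Its mean log2 LO/control was -0.15 ± 0.04 (0.902-fold), and 90.7% of the bright probes had a smaller absolute mean. The lower ratios were those with LO in Cy5, and the gene was below 1 on 3 of 4 arrays.

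*Cyp2c23*, an arachidonic acid epoxygenase, gave ratios of 1.01 and 0.761 in pool 1 and 1.13 and 0.835 in pool 2. Its mean log2 LO/control was -0.12 ± 0.10 (0.923-fold), which exceeded the SD of its pools by little, and 84.0% of the bright probes had a smaller absolute mean. The sign of *Cyp2c23* depended on the dye, as it did for *Cyp2c11* and *Cyp2c13*.

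**Figure D2:**
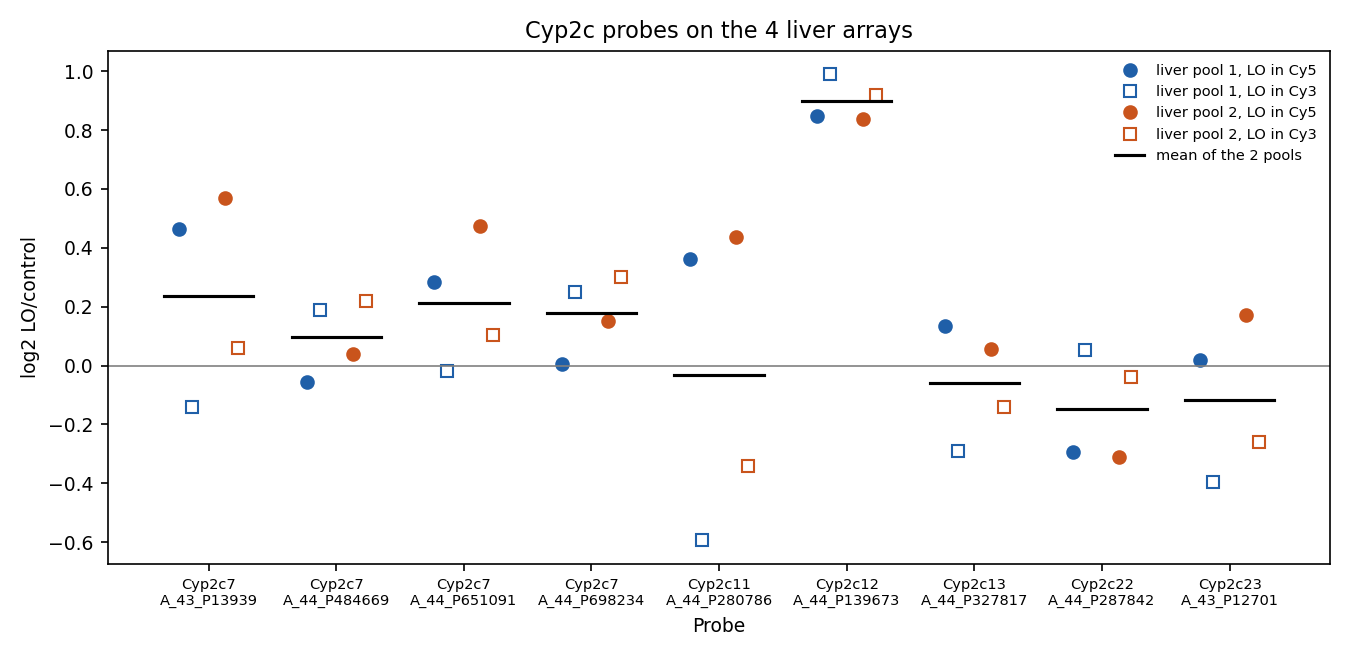
log2 LO/control (y axis) of the 9 Cyp2c probes (x axis) on the 4 liver arrays; colour gives the pool, filled circles have LO in Cy5, open squares LO in Cy3, and the black line is the mean of the 2 pools. The *Cyp2c12* points lie between 0.84 and 0.99, whereas those of *Cyp2c11* run from -0.59 to 0.44 and separate by dye.

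Over the 9 probes the median of the mean log2 LO/control was 0.10, beside -0.0016 over all bright probes, and the values ran from -0.15 to 0.90. *Cyp2c7* supplied 4 of the 9 probes, and the median is the value of its probe A_44_P484669. The means of *Cyp2c11*, *Cyp2c13*, *Cyp2c22* and *Cyp2c23* were below 0. The mean had the same sign in both pools for 8 of the 9 probes, 4 of these from *Cyp2c7*, beside 54.3% of the bright probes. *Cyp2c11* was the exception. The family therefore held values on both sides of 0, with *Cyp2c12* apart from the rest.

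**Figure D3:**
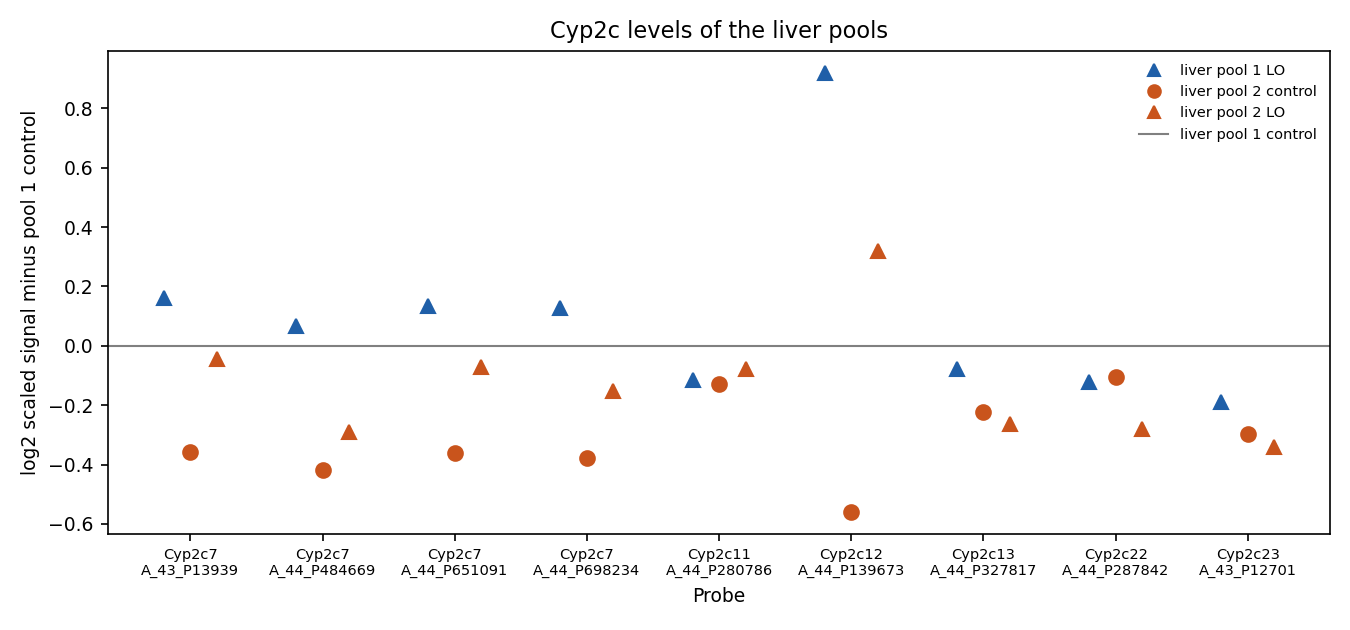
Scaled log2 signal of each Cyp2c probe in 3 liver extracts, given as the difference from the pool 1 control extract (y axis; the grey line at 0 is that extract), with circles for control and triangles for LO. *Cyp2c12* has both LO triangles above both controls, and pool 2 control lies below pool 1 control for every probe.

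The expression of the family was then compared between tissues, on values that the choice of members had not used. One limma fit over the 8 extracts (4 liver, 2 small intestine, 2 spleen, both dyes averaged, with treatment as a term) tested 30592 probes, and p-values were adjusted over all of them by the Benjamini-Hochberg method. Liver exceeded small intestine for all 9 Cyp2c probes, beside 31% of all probes tested, and exceeded spleen for all 9, beside 31.9%. Of the 9, 6 were well above background only in liver and passed the filter through liver alone, as did *Cyp2c13* with 1 spleen channel. For these probes the filter fixed the direction in advance, so their calls are no independent evidence and their p-values are not given. The 9 probes remained higher in liver under each of the 7 alternative settings, which adds no support where the filter had fixed the direction. The size of the differences depended on the background correction. With normexp, which added an offset of 50 to each signal, the log2 differences ranged from 3.61 for *Cyp2c12* to 9.33 for *Cyp2c7* probe A_43_P13939 against small intestine and from 3.61 to 9.32 against spleen for the same probes. Each lower bound on a fold given for a member outside liver therefore holds for the processed signals, whose background the scanner software had subtracted, and not for normexp.

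In liver every Cyp2c probe was well above background in all 8 channels. In small intestine and spleen 6 of the 9 were not well above background in any channel, so only lower bounds can be given for them. *Cyp2c12* had scaled levels of 950, 645, 1798 and 1186 in the 4 liver extracts (controls of pools 1 and 2, then LO), and between 5.38 and 5.97 in small intestine and spleen. It was at least 61.9-fold higher in liver than in small intestine and at least 61.3-fold higher than in spleen. These bounds hold for the processed signals, and with normexp the log2 difference of *Cyp2c12*, 3.61 against either tissue, was below them.

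*Cyp2c13* was at least 3439-fold higher in liver than in small intestine, where none of its 4 channels was well above background. In spleen 1 of its 4 channels was. Liver exceeded spleen by a log2 difference of 12.21, or 9.14 with normexp, which rests on signals mostly not above background in spleen. *Cyp2c22* was at least 262-fold and *Cyp2c23* at least 526-fold higher in liver than in small intestine, and at least 259-fold and 520-fold higher than in spleen. For both genes the filter had fixed this direction.

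For *Cyp2c7*, probes A_44_P484669, A_44_P651091 and A_44_P698234 were above background in neither of the other tissues, and liver was at least 672-fold, 1713-fold and 691-fold higher than small intestine. Against spleen the bounds were 665-fold, 1694-fold and 684-fold. Probe A_43_P13939 was well above background in 2 of 4 channels in small intestine and 1 of 4 in spleen, and liver exceeded small intestine (adjusted p = 1.78e-07, limma). The log2 difference of 12.42 rests on intestine signals near background and ran from 9.33 with normexp to 13.57 without replicate 2. The probes of *Cyp2c7* thus placed liver above both tissues, with different bounds.

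**Figure D4:**
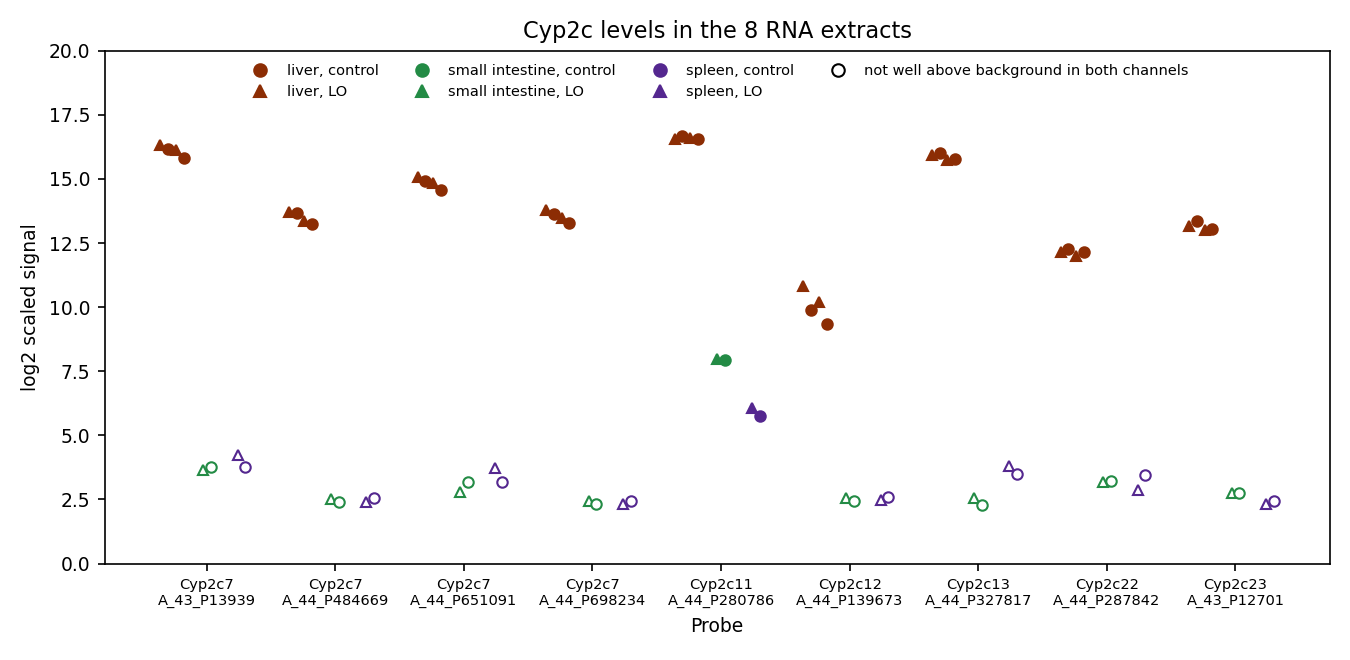
Scaled log2 signal (y axis) of each Cyp2c probe (x axis) in the 8 extracts, by tissue (colour) and treatment (circles control, triangles LO); open symbols mark extracts in which the probe was not well above background in both of its channels. All liver points are filled, and outside liver only *Cyp2c11* is filled in every extract.

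*Cyp2c11* was the only member well above background in every channel of all 3 tissues. Its scaled levels were 247 in control and 250 in LO small intestine, 54.6 in control and 67.2 in LO spleen, and 95845 to 104681 in liver. The order was liver, small intestine, spleen. Small intestine and spleen each had 1 control and 1 LO extract and no second pool, so a p-value between them measures no spread between pools. Liver exceeded small intestine by 398-fold (log2 8.64, SE 0.12, adjusted p = 1.66e-07, limma), and small intestine exceeded spleen by 4.10-fold (log2 2.04, SE 0.13, adjusted p = 7.90e-05, limma). With normexp the latter log2 difference was 1.09, and with control extracts alone its adjusted p was 0.0499 (limma). Small intestine exceeded spleen in 22.8% of all probes tested, and in 1 of the 9 Cyp2c probes.

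Transcripts of hepatocytes were followed beside *Cyp2c11*. Of the 15 hepatocyte marker probes, 9 were well above background in all channels in small intestine and 7 in spleen, and *Cyp2e1* and *Tat* had no such channel in either tissue. The summed scaled level of all markers was 189373 in control and 180772 in LO small intestine. In spleen it was 668 in control and 944 in LO RNA, with *Alb*, the albumin gene, in all channels of its 3 probes. In small intestine *Alb* had no channel well above background, and the sum was 221 in control and 222 in LO without *Apoa1* and *Apob*, apolipoprotein genes that enterocytes express themselves. Without *Apoa1* and *Apob*, 3 of 9 marker probes were well above background in all channels in small intestine and 7 of 9 in spleen. The part of hepatocyte RNA in the *Cyp2c11* signal was not tested.

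For *Cyp2c13*, small intestine was lower than spleen by a log2 difference of -1.24 (SE 0.17, adjusted p = 0.00159, limma), but with 1 of 8 channels well above background no fold is given. That call was lost with normexp background correction (adjusted p = 0.240, limma) and with control extracts alone (adjusted p = 0.187, limma).

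LO/control in the other tissues could be read for *Cyp2c11* alone. In small intestine its signal was 306 in control and 381 in LO RNA with LO in Cy5, and 284 and 233 with the dyes exchanged. In spleen it was 69.1 and 95.4, and 76.9 and 84.6. The ratio was on opposite sides of 1 on the intestine arrays, at 1.25 and 0.820, and above 1 on both spleen arrays, with log2 LO/control of 0.46 and 0.14.

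None of the 9 Cyp2c features passed the cut-offs on both intestine arrays, where 0.713% of all features did in either direction, and none did in spleen, where the share was 0.551%. With 1 pair of extracts per tissue these values have no replicate check.

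The genes around the family were taken from lists, of which only the bright probes are counted. No probe of any list passed the cut-offs in liver. The limma fit over the 2 pools called none of 30592 probes (1778 at an unadjusted p under 0.05), and it recovered none of the changes planted in simulated data, so its calls carry no information on these lists.

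The female-predominant genes had a median log2 LO/control of 0.12 over 5 probes of 4 genes. Their highest was *Cyp3a9*, a steroid hydroxylase, at 0.26 ± 0.18 (SD, n = 2 pools), and their lowest was *Sult2a6*, a hydroxysteroid sulfotransferase, at -0.44 ± 0.18. *Sult2a6* was lower with LO on all 4 arrays and *Cyp3a9* higher on all 4, so the list held both directions. Of the 16317 bright probes, 678 were lower and 753 higher on all 4 arrays.

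The male-predominant genes had a median of 0.01 over 7 probes. *Cyp4a2*, a fatty acid hydroxylase, was the highest at 0.54 ± 0.24, and *Car3*, carbonic anhydrase 3, was the lowest at -0.35 ± 0.03. *Cyp4a2* was higher and *Car3* lower on all 4 arrays, again in opposite directions within 1 list.

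The growth hormone pathway had a median of -0.0029 over 11 probes. Its highest and lowest values both came from *Igf1*, the hormone induced by growth hormone, at 0.18 ± 0.02 for probe A_44_P366723 and -0.07 ± 0.03 for probe A_44_P421502. Probe A_44_P421499 of *Igf1* was at 0.17 ± 0.05, so of its probes only A_44_P421502 was below 0. The sign of A_44_P421502 depended on the dye, at -0.31 and 0.20 in pool 1 and -0.42 and 0.23 in pool 2.

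Among the regulators of Cyp2c transcription, with a median of -0.04 over 12 probes, *Foxa2*, which encodes a forkhead factor of the HNF3 group, was the lowest at -0.47 ± 0.18. It was lower with LO on all 4 arrays, at -0.27 and -0.41 in pool 1 and -0.65 and -0.55 in pool 2. *Cebpa*, a liver-enriched leucine zipper factor, was the highest at 0.23 ± 0.24, a value below the SD of its pools.

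The electron donors of P450 enzymes had a median of -0.03 over 6 probes, from -0.12 ± 0.10 for *Por*, the P450 reductase, to 0.03 ± 0.14 for *Cyb5r3*, cytochrome b5 reductase. The arachidonate epoxide pathway had a median of -0.02 over 6 probes, from -0.18 ± 0.21 for *Pla2g4a*, a phospholipase that releases arachidonate, to 0.06 ± 0.12 for *Ephx1*, an epoxide hydrolase. *Cyp2c6v1*, the 1 further Cyp2c gene on the array from the list, had -0.01 ± 0.09.

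**Figure D5:**
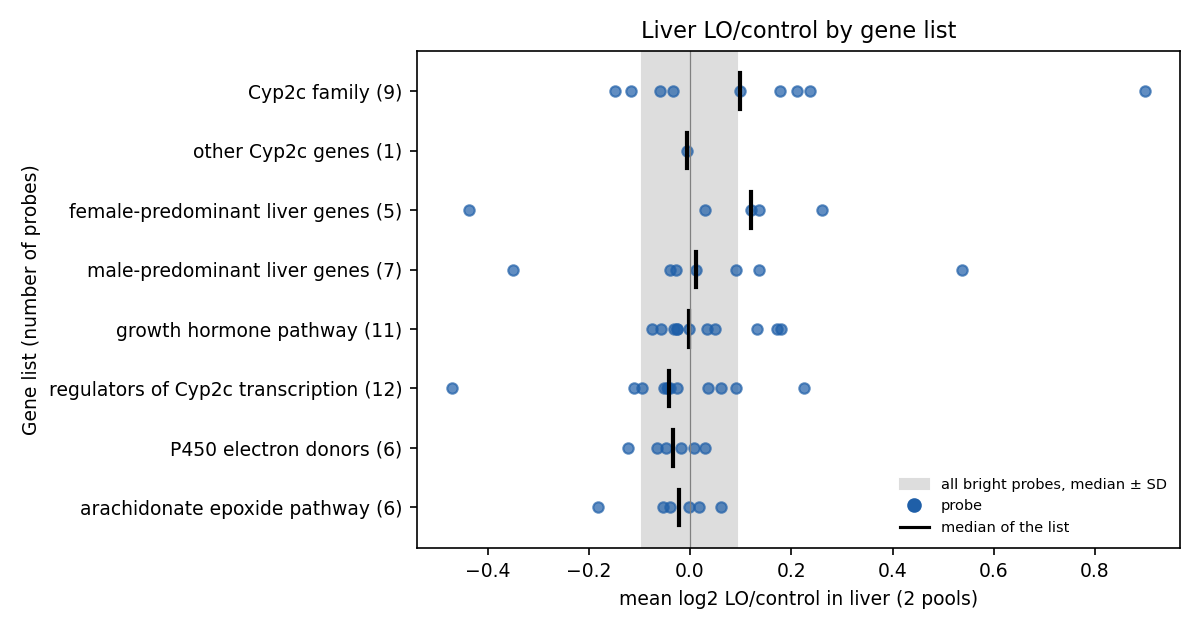
Mean log2 LO/control in liver over the 2 pools (x axis) of each bright probe by gene list (y axis, number of probes in brackets), with black bars for list medians and a grey band for the median ± SD of all bright probes. *Cyp2c12* at 0.90 is the farthest point, followed by *Cyp4a2* at 0.54 and *Foxa2* at -0.47.

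The genes whose 4 liver ratios were most like those of *Cyp2c12* were sought among 5994 bright probes with a gene symbol, by the root mean square distance of the log2 values over the 4 arrays. The nearest were *Fgf21*, a hepatic hormone, at a distance of 0.23 (1.62-fold), and *Ccnb1* at 0.25 (1.60-fold). *Cyp4a8*, a fatty acid hydroxylase, followed at 0.38 (1.47-fold), then *Ccna2*, another cyclin, at 0.41 (1.43-fold) and *Plk1*, a mitotic kinase, at 0.43 (1.39-fold). No other member of the family was among these 5.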

How the data were processed

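Total RNA of 3 tissues was hybridised to 8 Agilent 2-colour arrays. The authors deposited, per array, the output of Feature Extraction 11.0.1.1 (per the labels): processed intensities of both channels after background subtraction and dye normalization, log10 ratios of Cy5 over Cy3, a software p-value per feature, and other columns with flags. The deposited value table held log10 of the ratio of the processed signals for 100% of features.

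Of 43379 non-control features, 34 flagged as non-uniform were left out. Features of 1 probe were averaged (40979 probes), and 30592 probes whose red or green signal was well above background on 2 or more arrays were tested. Log10 ratios were converted to log2, turned to LO/control, and dye-swapped arrays were averaged. For levels, processed signals were scaled between arrays (Aquantile). Bounds used the lowest signal among probes well above background. limma 3.58.1 in R 4.3.3 was used with an adjusted p under 0.05, and was tested on simulated data: of planted changes of 2 on the log2 scale it recovered 68% for liver against small intestine, 70% for liver against spleen and 0% for LO in liver. The number of arrays limits the precision. In the LO fit of liver, p-values measure the spread between the 2 pools, which may be technical. In the tissue fit the spread came from the liver extracts and from LO differences that varied between tissues. Small intestine and spleen had no second pool.

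The members and gene lists were chosen with earlier results of these data known. Named were all member probes, the highest and lowest bright probe of each list, any past the cut-offs, and the 5 probes most like *Cyp2c12*. *Alb*, *Cyp2e1*, *Tat*, *Apoa1* and *Apob* were named after their values were seen. Marker lists of the other cell types were counted only to check tissue labels. Replicate number marked dye orientation, and the deviations of same-numbered arrays from their group means correlated at 0.407 to 0.819. Promoters were read from RefSeq (GRCr8, 6 of 6 genes matched). Probe sequences were not used here, so cross-hybridisation between the related Cyp2c transcripts was not tested. Alternatives were other background corrections, scalings, filters, cut-offs and left-out arrays.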

Additional observations from a re-analysis of the deposited data

How the results depend on the processing

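*Cyp2c12* was above 0 under all 11 alternatives, several of which could not change its value. It ran from 0.75 with normexp and loess to 0.95 without replicate 1 on the log2 scale. Under each cut-off setting 1 member passed the liver cut-offs. With 1 dye orientation alone the values of the other members moved with the dye, and *Cyp2c11* ran from -0.47 to 0.40. In all, 19 of 99 alternative values of the member probes moved by more than 1 SD of the pools, all with normexp or 1 dye orientation. The other settings could not move them that far. Filters, the deposited value table, ratios of exactly 1 as missing and unaveraged arrays left each value unchanged. The value of 1 pool always lies within 1 SD of the mean of 2 pools. The count of limma calls for LO in liver was 0, or 150 with normexp and loess and 2 with bright probes alone. It was 0 with 8 arrays and the replicate block. Liver features past the cut-offs numbered 20, but 4 with the software p, 12 with symmetric cut-offs, 2 with normexp and loess, 351 in pool 1 alone, 543 in pool 2 alone, and 6940 to 7687 when 1 array of each pair was left out. Intestine had 309 features, or 9, 205 and 3 under the first of these settings, and 8152 to 9396 on 1 array. Spleen had 239, or 7, 146 and 7, and 7467 to 8435 on 1 array. On 1 array, 2 member features passed in intestine and 1 to 3 in spleen, none of them well above background on both channels. Calls between tissues were 19824, 21482 and 15976, and 6837, 10103 and 3642 with control extracts only; with the replicate block they were 20235, 21718 and 16490, and the member probes called in each comparison kept their number. Higher in intestine than in spleen was 1 member probe, or 2 with 75th percentile scaling and 2 when either replicate was left out. Percentile scaling moved the median difference of liver against spleen from -0.10 to 0.19, far below the member differences. The causes were not tested. Signal over background limited all members but *Cyp2c11* outside liver.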
